A study of Mus musculus with 16 samples.

Results

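The nuclear-encoded subunits of the mitochondrial respiratory chain and ATP synthase were taken from the deposited table by gene symbol. Symbols beginning with Nduf, Uqcr, Cox4 to Cox8 or Atp5 were kept, together with Sdha, Sdhb, Sdhc and Sdhd, and symbols containing -ps were left out. The rule used names only and gave 93 of the 35920 genes. They were divided by symbol into 38 subunits of complex I, 4 of complex II, 8 of complex III, 17 of complex IV and 16 of complex V (the ATP synthase). Ndufa4, a complex IV associated subunit, was counted with complex I by its symbol. The other members were 8 assembly factors of complex I (Ndufaf symbols), Cox7a2l, which promotes supercomplex assembly, and Atp5s, an ATP synthase coupling factor.

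The respiratory chain sits in the inner mitochondrial membrane and passes electrons from NADH and succinate to oxygen while pumping protons, and the ATP synthase uses the resulting gradient to make ATP. A few core subunits are made from mitochondrial DNA and all others from nuclear genes, so each complex other than complex II mixes products of both genomes. Male germ cells switch on testis forms of several subunits of cytochrome c oxidase (complex IV) during spermatogenesis, among them Cox6b2, Cox7b2 and Cox8c, whose somatic counterparts are Cox6b1, Cox7b and Cox8a.

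RNA of whole mouse testis was separated by the antibody J2, which recognizes double-stranded RNA, into captured RNA (J2) and unbound RNA (flow-through), and both were sequenced with a strand-specific low-input kit. Testes of wild-type mice and of mice whose genotype is given as Dcr-/- (called knock-out here), both at postnatal day 18 (P18) and of C57BL/6 x 129S4/SvJae background, gave 3 libraries per fraction. Adult wild-type testis, for which no strain is named, gave 2 libraries per fraction, so age and strain cannot be told apart. The labels name neither the cell type of the Dicer deletion nor a Cre driver, describe the flow-through as free of most rRNA and dsRNA, and leave unsaid whether each replicate was a separate animal. All p-values thus refer to variation among these libraries, possibly technical.

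The values are normalized counts on a scale that sets the median gene about equal in all libraries, and so J2 against flow-through is a comparison relative to the median gene and not an amount of RNA. The flow-through libraries held the larger column totals, the J2 libraries the finer steps between values. One read was worth about 2 to 8.31 units in flow-through and 0.116 to 0.426 units in J2, as approximated from the smallest value shared by at least 10 genes. Behind a value of 10 lay 1.2 to 4.99 reads in a flow-through library and 23.5 to 86.3 in a J2 library, by this approximation, and a member listed at 0 in flow-through may be present below that depth. Dicer1, the gene presumed targeted from the label, was at 0 to 12.4 in the wild-type P18 libraries, 0 to 8.33 in the knock-out libraries and 0 to 13.7 in the adult libraries, too low to check the genotype. Markers of elongating spermatids (10 genes, Prm1 and Tnp1 among them) summed to 28.9 to 488 in wild-type P18 libraries and to 2180 to 3210 in adult libraries. Sertoli, Leydig, spermatogonial and spermatocyte markers were detected in every group, as the testis label implies.

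Most members were low, and few were seen everywhere. In flow-through the 93 members summed to 1069 to 1757 units per library, and in J2 to 1094 to 4341 units. Only 20 of the 93 were above 0 in every library. Cox4i2, Cox8b and Cox6a2 were listed at 0 in all 16 libraries, and Cox7a1 reached 0.764 in a single knock-out J2 library. Of these 4, Cox6a2, Cox7a1 and Cox8b are the striated-muscle and brown-fat forms, and Cox4i2 is the form known from lung. Genes entered a test when 2 or more of its libraries reached a value of 10. Over the 16 libraries 79 members passed, over the 8 flow-through libraries 56 and over the 8 J2 libraries 75. By their second-highest value, Ndufb3 (10.8) and Ndufb6 (11) lay just inside this limit, and Ndufa9 (9.1) and Ndufb11 (9.04) just outside it. The 14 that did not pass were Ndufa1, Ndufa4l2, Ndufa9, Ndufb11, Ndufs6, Ndufaf1, Ndufaf4, Ndufaf5, Ndufaf6, Ndufaf8, Cox4i2, Cox6a2, Cox7a1 and Cox8b. Of the 79 tested, between 4 and 31 were at 0 in a flow-through library and between 0 and 15 in a J2 library.

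**Figure D1:**
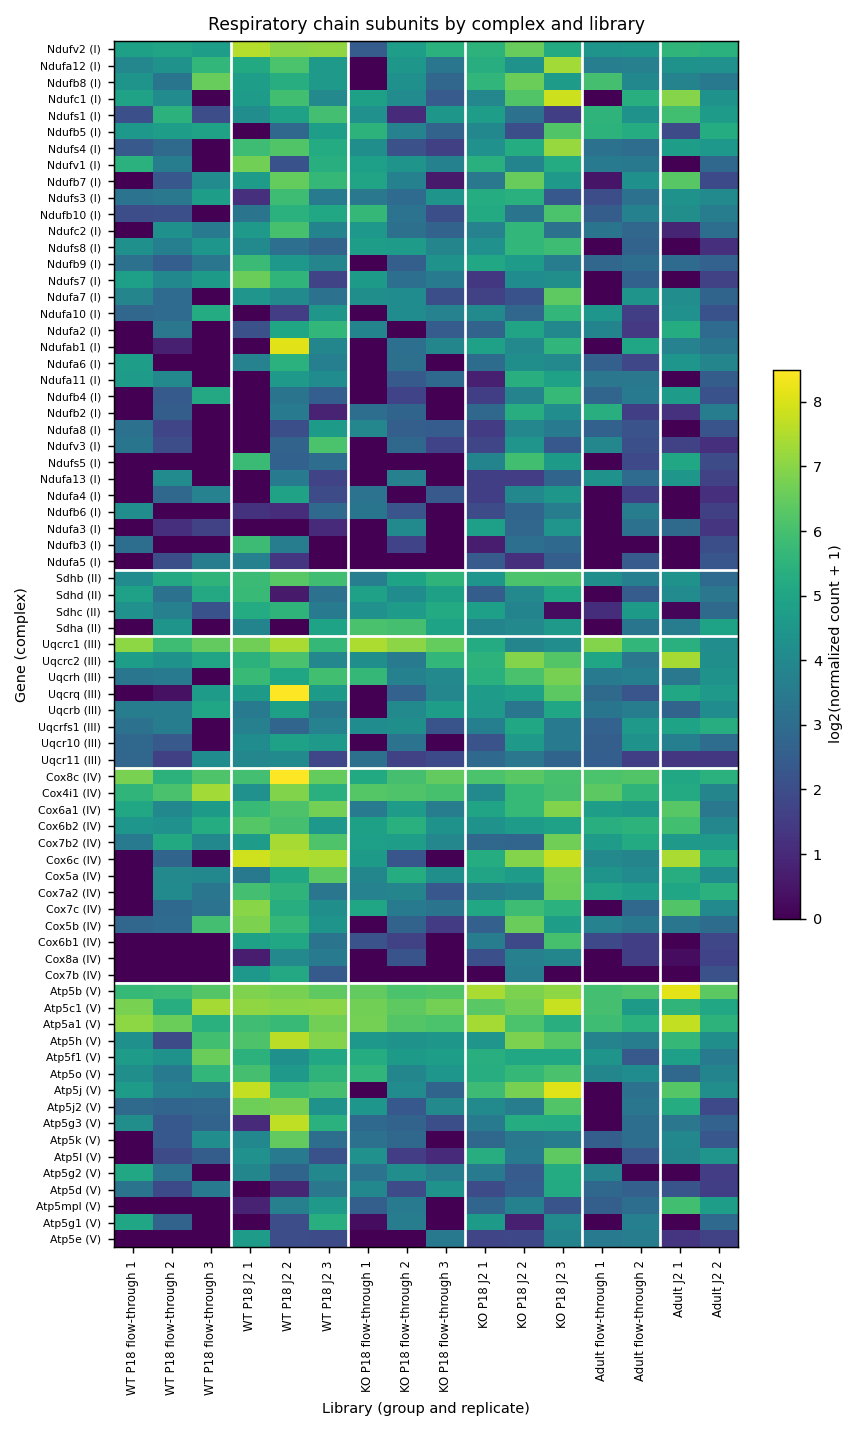
Rows are subunits of complexes I to V that passed the filter over 16 libraries (1 is not shown), columns are libraries, and the colour is log2(normalized count + 1); white lines separate complexes and groups. Rows within a complex are ordered by their mean. Dark cells (values at 0) are more frequent in the flow-through columns, and Cox6c, Cox6b1, Cox8a and Cox7b are dark in most or all wild-type P18 flow-through columns and lighter in the wild-type P18 J2 columns.

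The first question was which subunits the antibody fraction of wild-type P18 testis held above or below the flow-through. Cox6c, a small structural subunit of cytochrome c oxidase (chr15:35931976-35938246 in GRCm38.p6), was the 1 member past the threshold. It stood at 234, 184 and 175 units in the J2 libraries and at 0, 5.69 and 0 units in the flow-through libraries. The groups did not overlap, and the difference was 6.71 (SE 1.12) on the log2(value + 1) scale, with an adjusted p of 0.00487 from limma's test over all 9526 genes tested. Of those genes, 0.525% were called higher and 0.378% lower, so 1 member of 79 called higher and 0 called lower is close to the background. Header codes pair each flow-through library with 1 J2 library, and with them as a replicate block the adjusted p of Cox6c was 0.0537 by limma. RefSeq also lists a pseudogene named Cox6c2, and how reads shared between such copies were assigned is not given in the sources used here.

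Below the threshold the members lay mostly on the J2 side. In wild-type P18, 62 of the 79 tested members had a positive difference (45.7% of all genes did), with a median of 1.38 against -0.05 over all genes tested. At an unadjusted p under 0.05, 23 members were higher and 0 lower, beside 6.8% and 7.11% of genes. The J2 and flow-through libraries did not overlap for 22 members, all higher in J2, beside 7.08% of genes higher and 8.3% lower. Because a gene could pass the filter through the J2 libraries alone, the same was described for the 56 members that passed within flow-through: 43 were positive, with a median of 1.10 against -0.39 over the genes passing there. Of these 56, 16 were higher and 0 lower at an unadjusted p under 0.05, and the share of the genes passing there was not counted. Without overlap 14 were higher and 0 lower, beside 6.39% and 10.8% of the 7141 genes passing there, so 8 of the 22 had entered through J2 libraries. From the ratio of group means, which is less moved by single values at 0, the median of the 79 was 1.12 against 0 over all genes. In wild-type P18, 3 to 15 members were at 0 in a J2 library and 10 to 31 in a flow-through library, and J2 libraries had more reads per unit; the part of depth in the medians was not tested. The scale matters as well: on a common total without mitochondrial genes the median of all genes was 1.87 and that of the members 4.06. On it 56 members were called higher, but the share of all genes called was not counted, so this count has no background.

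By complex, the wild-type P18 medians on the log2(value + 1) scale were 0.63 for complex I, 1.23 for complex II, 0.80 for complex III, 2.30 for complex IV and 1.26 for complex V. Complex IV had 12 of its 13 tested members on the J2 side, complex V 12 of 16 and complex I 25 of 33. The summed values of complex IV were 284 ± 99.3 units in flow-through and 897 ± 285 units in J2 (SD, n = 3 each), and those of complex V 425 ± 139 and 867 ± 132 units.

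In complex I, Ndufs4, an accessory subunit of the matrix arm near the NADH-oxidizing module, was at 56.9, 72.7 and 36.6 units in wild-type P18 J2 and at 4.14, 6.64 and 0 in flow-through. Its groups did not overlap, and the log2 difference was 3.999 (SE 1.04). Ndufs4 did not pass the filter within flow-through, so its difference is given without a p. Ndufs5, an accessory subunit on the intermembrane side, was at 55, 5.17 and 7.24 units in J2 and listed at 0 in all 3 flow-through libraries. It too passed the filter through J2 libraries alone. Ndufv2, an iron-sulfur subunit of the NADH-oxidizing module, was at 186, 129 and 134 units in J2 and at 27.5, 30.1 and 25.5 in flow-through. It was thus well above 0 on both sides, and its difference of 2.38 (SE 0.79) had an adjusted p of 0.162 by limma.

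Complex II had 3 of its 4 tested members on the J2 side and complex III 7 of 8. Sdhb, the iron-sulfur subunit of succinate dehydrogenase, was at 54, 77.9 and 59.1 units in wild-type P18 J2 and at 16.2, 34 and 44.7 in flow-through, without overlap. Sdha, the flavoprotein, Sdhc and Sdhd, the membrane anchors, all overlapped between the fractions. In complex III, Uqcrh, the acidic hinge subunit, was at 53.2, 30.9 and 60.5 units in J2 and at 9.13, 10.2 and 0 in flow-through (log2 difference 3.29, SE 0.97, adjusted p 0.108 by limma). Uqcrq, a small membrane subunit, was at 23.7, 353 and 23.9 units in J2 and at 0, 0.289 and 24.5 in flow-through, so the fractions overlapped and its difference of 4.23 leaned on a single J2 library. The core protein Uqcrc1 differed little, with 99.4, 172 and 49.2 units in J2 and 132, 56.7 and 87.3 in flow-through.

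In complex V, the catalytic subunit Atp5b was at 115, 108 and 82.9 units in wild-type P18 J2 and at 50.4, 54.6 and 73.3 in flow-through. The fractions did not overlap, and the difference was small (log2 0.77, SE 0.63, adjusted p 0.61 by limma). Atp5h, subunit d of the peripheral stalk, was at 69.6, 194 and 120.1 units in J2 and at 18.3, 2.85 and 59.9 in flow-through (2.84, SE 0.95, adjusted p 0.166 by limma). Atp5j, the coupling factor of the same stalk, was at 209, 52.2 and 62.1 in J2 and at 24.7, 12.3 and 11 in flow-through (2.47, SE 1.13, adjusted p 0.329 by limma). Both stalk subunits were higher in every J2 library than in any flow-through library. By contrast the alpha subunit Atp5a1 (59, 51.9 and 102.5 units in J2, and 131, 96.1 and 41.2 in flow-through) and the gamma subunit Atp5c1 overlapped between the fractions.

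The remaining complex I subunits with high means or wide differences varied strongly between replicates. Ndufb8, a membrane-arm subunit, was at 26.4, 37.9 and 23.4 units in wild-type P18 J2 and at 20.1, 8.78 and 91.4 in flow-through, with overlap. In the knock-out its J2 values of 47.7, 95.4 and 24.3 lay above the flow-through values of 0, 18.4 and 6.02. Ndufa12, an accessory subunit, overlapped in wild type (35, 67 and 22.6 units in J2, 14.4, 19.7 and 48.3 in flow-through). In the knock-out it stood at 38.6, 19.2 and 160.1 units in J2 and 0, 21.7 and 9.2 in flow-through, also with overlap.

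Ndufs1, Ndufs3 and Ndufv1 are core subunits of the matrix arm, and their values spread widely between replicates. Ndufv1, the flavin-binding subunit, was at 101.5, 3.40 and 39.9 units in wild-type P18 J2 and 42.3, 11.2 and 0 in flow-through. Its fractions overlapped, and those of Ndufs1 (3.07 to 43.3 units in flow-through, 17.1 to 61.6 in J2) and Ndufs3 (8.37 to 26.1 in flow-through, 1.21 to 57 in J2) did too. The accessory subunits Ndufb5 (22 to 28.8 units in flow-through, 0 to 25.3 in J2) and Ndufa10 (5.94 to 36.9 in flow-through, 0 to 21.4 in J2) were among the most negative members of wild-type P18, with overlap. Ndufa11, Ndufb2, Ndufb4 and Ndufc1 also overlapped between the wild-type P18 fractions, and each was at 0 in at least 1 of those libraries, whereas Ndufb10 was wholly higher in J2 (8.71, 41.7 and 33.3 units against 2.98, 3.22 and 0).

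In the other complexes, Uqcrc2, the second core protein of complex III, was at 43, 65.3 and 14.2 units in wild-type P18 J2 and 25.3, 19.3 and 30 in flow-through, with overlap. Uqcrfs1, its Rieske iron-sulfur protein, was at 29.3 and 38.7 units in adult J2, above the 11.9, 5.76 and 12.5 of wild-type P18 J2. Atp5mpl, a small membrane subunit of the ATP synthase, was at 60 and 26 units in adult J2 and 0.738, 12.1 and 22.9 in wild-type P18 J2. In these adult cases the ages did not overlap. Cox7a2, the ubiquitous form of its complex IV subunit, was at 30.5 and 26 units in adult flow-through, above the 0, 15.4 and 9.07 of wild-type P18 flow-through.

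**Figure D2:**
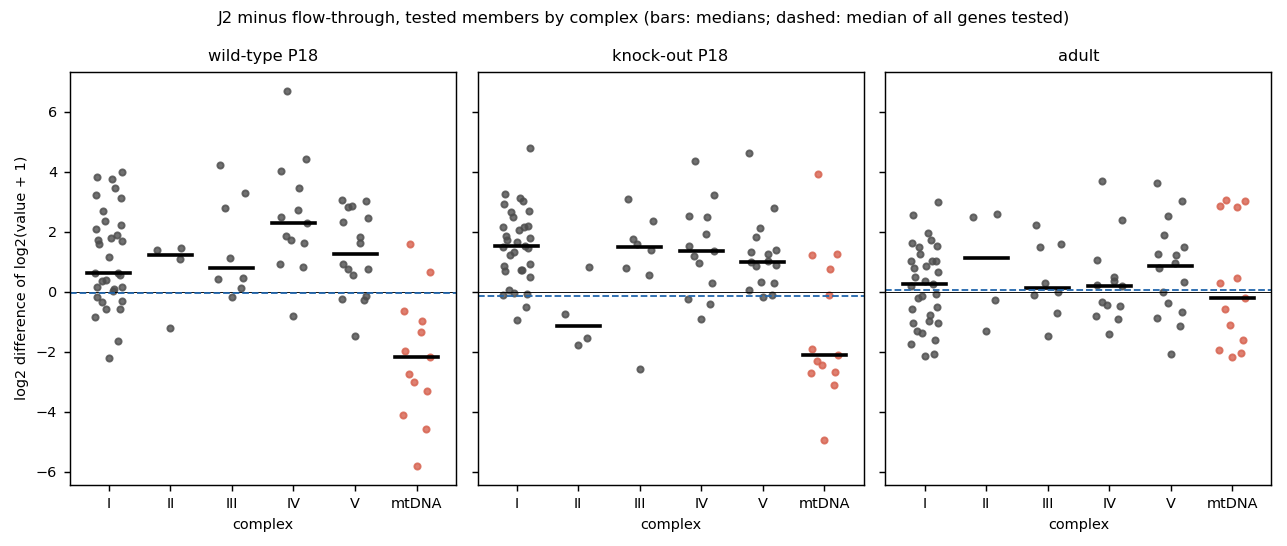
J2 minus flow-through on the log2(normalized count + 1) scale (vertical axis) for each tested subunit (grey points) by complex, in wild-type P18, knock-out P18 and adult testis, with the 13 mitochondrially encoded subunits in red. Black bars are medians and the dashed line is the median of all genes tested. In wild-type P18 the complex IV median is 2.30 and the mitochondrially encoded median -2.18, while the adult medians of complexes I to V lie between 0.13 and 1.11.

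In knock-out P18 testis no member passed the threshold in J2 against flow-through, where limma called 0.168% of 9526 genes higher and 0.189% lower. On the common total without mitochondrial genes 58 members were called higher, and the share of all genes called on it was not counted. With p taken unadjusted and under 0.05, 14 members were higher and 1 lower, beside 4.8% and 6.69% of genes. Again 64 of 79 members were positive (42.9% of genes were), with a median of 1.27 against -0.15 over all genes tested. Without overlap, 12 members were higher and 3 lower in J2, beside 6.95% and 11.1% of genes. Of the 12, Ndufs4, Ndufs5, Ndufa5 and Atp5g3 did not pass within flow-through. The 14 members higher at an unadjusted p were not counted within that filter. Passing within flow-through alone, 42 of 56 members were positive, with a median of 0.89 against -0.47 over genes. The complex medians were 1.54 for complex I (28 of 33 positive), -1.14 for complex II (1 of 4 positive), 1.499 for complex III, 1.38 for complex IV and 1.01 for complex V.

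The knock-out libraries gave their widest differences to subunits seen above. Atp5j was at 55.7, 108 and 271 units in knock-out J2 and at 0, 16.1 and 5.67 in flow-through, a log2 difference of 4.62 (SE 1.13, adjusted p 0.101 by limma). Ndufs5, which passed the filter through J2 libraries alone, was at 13.3, 59.8 and 23.6 in J2 and listed at 0 in all 3 flow-through libraries. Cox6c was at 37.5, 119 and 224 against 23.6, 3.81 and 0 (4.37, SE 1.12, adjusted p 0.121 by limma). In all 3 cases the fractions did not overlap. The opposite held for Uqcrc1, whose knock-out J2 values of 36.9, 13.7 and 16.9 units lay below all flow-through values of 175, 128 and 89.9 (log2 difference -2.56, SE 0.74, adjusted p 0.157 by limma). Sdha (13.3, 14.9 and 23 units in J2, and 65.9, 63.3 and 29.6 in flow-through) and Cox4i1, the ubiquitous isoform of the regulatory subunit 4, also lay wholly lower in knock-out J2. On a common total without mitochondrial genes, Uqcrc1 was 1.52, Sdha 2.35 and Cox4i1 3.05 on the J2 side. Another common total also left out every feature among the 10 highest of any library. On it they stayed lower in J2 (-2.70, -1.66 and -1.03).

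The wild-type and knock-out comparisons share no library. Across them 52 of 79 members were positive in both (26.5% of the 9526 genes were) and 22 of opposite sign. Pearson's r across the 79 members was 0.43 and Spearman's rho 0.39, given as a description since the members share libraries and depth. Cox6c, Cox7c, Cox6a1, Ndufs4, Ndufs5, Atp5j and Atp5b, 7 of 79 members, were higher in J2 without overlap in both genotypes, as were 2.04% of genes. Of them Ndufs4 and Ndufs5 passed the filter through J2 libraries alone. Cox7c, a small subunit of cytochrome c oxidase, was at 126, 38 and 17.7 units in wild-type J2 and at 0, 6.43 and 8.45 in flow-through, and in the knock-out at 33.6, 56.8 and 42 against 31.1, 10.6 and 8.54. No genotype by fraction interaction passed the threshold (0 of 79 members and 0% of 9526 genes in either direction by limma). At an unadjusted p under 0.05 it held 0 higher and 1 lower member, beside 2.18% and 2.59% of genes. The lower one was Uqcrc1 (-2.69, SE 1.05, unadjusted p 0.0188 and adjusted p 0.993 by limma).

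In adult testis, with 2 libraries per fraction, no member was called in J2 against flow-through. Limma called 0.147% of genes higher and 0.168% lower. (On the common total without mitochondrial genes 48 members were called higher, with the share of all genes not counted.) Before adjustment, at p under 0.05, 3 members were higher and 0 lower, beside 4.01% and 2.63% of genes, which is near the background. The median member difference was 0.28 against 0.05 over all genes (0.09 without the first adult J2 library), and 44 of 79 members were positive (51.1% of genes). Groups of 2 often separate, and 21 members were higher and 13 lower without overlap, beside 18.4% and 17.3% of genes. The 3 members were Cox7c (72.9 and 15.5 units in J2, 0 and 6.22 in flow-through), Atp5j (75.1 and 17.2 in J2, 0 and 8.27 in flow-through) and Ndufaf2, an assembly factor of complex I (31.3 and 5.05 in J2, listed at 0 in both flow-through libraries). Each of these 3 had its higher J2 value in the first adult library, whose 93 members summed to 2579 units, against 1094 in the second.

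For the testis and somatic forms of complex IV, the promoters are shown first because the members of a pair are copies of 1 subunit under different promoters. The windows run from 250 bases before to 50 after the first listed start, from RefSeq on GRCm38.p6, 5′ to 3′ on the gene's strand. Capitals mark CCAAT or its reverse complement ATTGG and, where present, the GABP motif CCGGAAG or its reverse complement CTTCCGG. Cox6b2 lies at chr7:4753045-4753344 on the minus strand, Cox6b1 at chr7:30626065-30626364 on the minus strand, Cox7b2 at chr5:71548156-71548455 on the minus strand and Cox7b at chrX:106015450-106015749 on the plus strand.
Cox6b2: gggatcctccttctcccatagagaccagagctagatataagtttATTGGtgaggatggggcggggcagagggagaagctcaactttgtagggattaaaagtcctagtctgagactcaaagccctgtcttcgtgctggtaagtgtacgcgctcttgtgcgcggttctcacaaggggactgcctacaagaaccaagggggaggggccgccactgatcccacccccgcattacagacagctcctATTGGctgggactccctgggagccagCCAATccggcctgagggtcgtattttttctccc
Cox6b1: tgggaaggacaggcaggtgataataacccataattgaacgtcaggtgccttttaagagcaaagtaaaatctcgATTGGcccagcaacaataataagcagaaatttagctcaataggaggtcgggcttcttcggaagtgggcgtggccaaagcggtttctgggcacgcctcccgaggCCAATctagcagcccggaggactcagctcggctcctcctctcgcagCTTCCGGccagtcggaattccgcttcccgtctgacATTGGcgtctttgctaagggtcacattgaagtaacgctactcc
Cox7b2: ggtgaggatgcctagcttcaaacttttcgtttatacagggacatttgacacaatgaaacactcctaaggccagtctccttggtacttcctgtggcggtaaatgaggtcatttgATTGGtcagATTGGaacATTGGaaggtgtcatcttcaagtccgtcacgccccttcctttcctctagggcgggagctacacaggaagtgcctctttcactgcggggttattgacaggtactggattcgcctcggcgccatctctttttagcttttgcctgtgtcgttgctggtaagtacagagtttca
Cox7b: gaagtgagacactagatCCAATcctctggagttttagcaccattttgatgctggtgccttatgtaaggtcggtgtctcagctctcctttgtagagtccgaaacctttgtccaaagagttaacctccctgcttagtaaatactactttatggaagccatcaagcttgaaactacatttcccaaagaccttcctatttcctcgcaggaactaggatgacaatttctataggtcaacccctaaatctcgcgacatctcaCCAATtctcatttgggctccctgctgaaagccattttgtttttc
Both testis windows held 3 CCAAT matches and 10 CpG dinucleotides. The Cox6b1 window held 3 CCAAT matches, 1 GABP match and 17 CpG, and the Cox7b window 2 CCAAT matches and 5 CpG. Cox8a had 1 CCAAT match, 2 GABP matches and 19 CpG in its window, and Cox8c was not matched.

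In wild-type P18 flow-through the testis forms were present and their somatic partners were not seen. Cox6b2 was at 21.2, 18.9 and 37.2 units, Cox7b2 at 10.5, 35 and 14.5, and Cox8c at 111, 43.1 and 70.6. Cox6b1, Cox7b and Cox8a were each listed at 0 in the same 3 libraries, where 1 read was worth 2 to 8.31 units. All 3 somatic forms were above 0 in every wild-type P18 J2 library. There Cox6b1 was at 28.4, 33.5 and 8.55 units, Cox7b at 22.2, 33.9 and 4.26, and Cox8a at 0.577, 15 and 10.7. The testis forms in the same J2 libraries were Cox6b2 at 75.6, 63.1 and 21.9 units, Cox7b2 at 24.7, 167 and 71.1, and Cox8c at 61.2, 360.5 and 88. In J2 against flow-through the somatic forms did not overlap and were not called by limma, and the testis forms overlapped.

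The ratio of the testis to the somatic form was formed within each library as log2 of (testis value + 1) over (somatic value + 1). Where the somatic form is at 0 this ratio is the log2 level of the testis form and moves with the scaling of the library. Cox6b1, Cox7b and Cox8a passed the filter through J2 libraries alone, so these ratios are given without a p. The ratios are among the 12 to which an exact permutation test was applied. For Cox6b2 over Cox6b1 it was 4.47, 4.31 and 5.26 in wild-type flow-through and 1.38, 0.90 and 1.26 in wild-type J2. The fractions did not overlap, and the mean difference was -3.50. Cox8c over Cox8a also did not overlap (mean difference -1.90). Cox7b2 over Cox7b overlapped (-2.15). In the knock-out the 3 mean differences were -2.77, -1.61 and -2.21, each with overlapping libraries. Since the somatic form was at 0 in wild-type flow-through, the size of these differences depends on the value of 1 added and on depth.

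The testis forms overlapped between the genotypes. In knock-out flow-through Cox6b2 was at 27.8, 40.7 and 19.4 units, Cox7b2 at 27, 25.3 and 14.4, and Cox8c at 34.9, 63 and 86.9, all overlapping wild type. In knock-out J2 Cox6b2 was at 19.1, 24.8 and 28.4 units, Cox7b2 at 6.13, 5.82 and 98.9, and Cox8c at 66.7, 79.6 and 64.6, again overlapping. In adults the flow-through values were 39 and 43.6 (Cox6b2), 25 and 35.5 (Cox7b2) and 66.8 and 72.1 (Cox8c). The adult values of Cox6b2 lay above all 3 wild-type P18 flow-through values, with a log2 difference of 0.72 (SE 0.64, adjusted p 0.721 by limma), and those of the other 2 overlapped P18. Cox7b was listed at 0 in both adult and all 3 knock-out flow-through libraries, and Cox8a reached at most 3.67 units in any flow-through library.

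**Figure D3:**
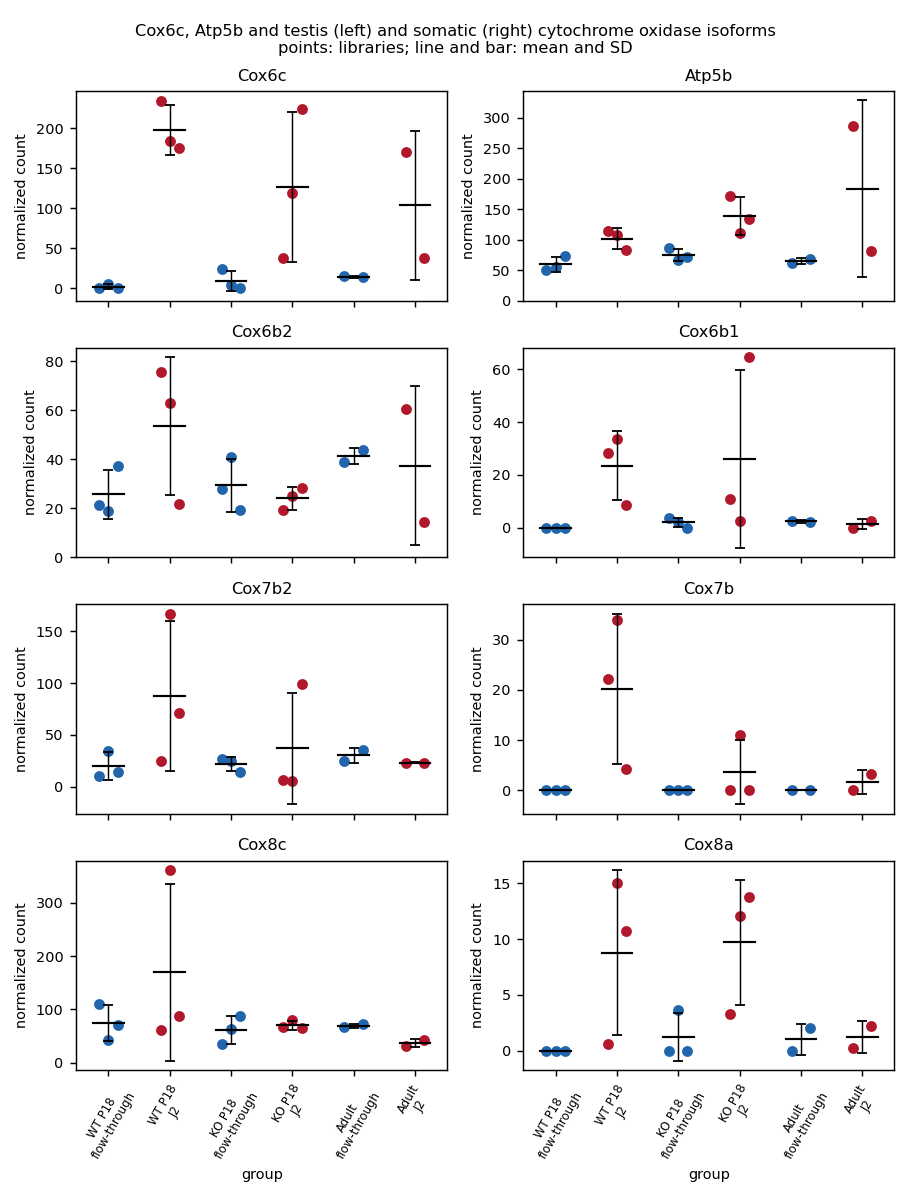
Normalized counts per library (points) for Cox6c, Atp5b and the 3 testis and somatic pairs of complex IV in the 6 groups, with flow-through in blue, J2 in red, the mean as a line and the SD as a bar; axes differ between panels, and SD bars can reach below 0. Cox6b1, Cox7b and Cox8a sit at 0 in all wild-type P18 flow-through libraries, while Cox6b2, Cox7b2 and Cox8c lie between 10.5 and 111 there.

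The knock-out was next set against wild type within each fraction, to ask whether subunit RNA differs with the Dcr-/- label. Limma called 0% of 7141 genes in flow-through and 0% of 6882 in J2, and 0 of 56 and 0 of 75 members. At an unadjusted p under 0.05 in flow-through, 2 members were higher and 0 lower, beside 4.65% and 1.46% of genes. In J2 1 was higher and 2 lower, beside 4.23% and 2.17%. The median member difference in flow-through was 0.27 against 0.33 over all genes, and in J2 -0.03 against 0.13, where leaving out 1 library gave -0.32 to 0.23. On a common total without mitochondrial genes the flow-through median was -0.25 against -0.12 over genes. These comparisons share the wild-type libraries with those between fractions and ages.

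Sdha and Cox7a2l had the widest positive differences in flow-through. There Sdha was at 65.9, 63.3 and 29.6 units in the knock-out and 0, 19.9 and 0 in wild type (log2 difference 4.21, SE 1.46, adjusted p 0.789 by limma). Cox7a2l was at 32.8, 13 and 14.6 against 0, 4.22 and 0 (3.49, SE 1.13), and it reached the filter through knock-out libraries alone, so no p is given. Neither overlapped, and without overlap 5 members were higher and 1 lower, beside 7.53% and 3.04% of genes. Of the 5 higher, Cox7a2l and Cox7c reached the filter through knock-out libraries alone, and Sdha would not have reached it without them. The place of these members in the count supports no comparison. The lower one was Cox5b, a zinc-binding subunit of cytochrome c oxidase, at 0, 5.51 and 1.84 units in the knock-out and 5.98, 6.8 and 60.8 in wild type. In J2, Uqcrc1 (36.9, 13.7 and 16.9 against 99.4, 172 and 49.2) and Ndufv2 (44.1, 90.8 and 35.4 against 186, 129 and 134) were lower without overlap, and Ndufa3 (27, 6.04 and 20.5 against 0, 0 and 1.04) and Ndufs8 higher, beside 3.78% of genes lower and 6.12% higher. Ndufa3 reached the filter through knock-out J2 libraries alone, so its place in this count supports no comparison. Complex IV had 11 of 13 tested members negative in J2, with a median of -0.59, where 53.5% of all genes were positive. Beside these values, summed Sertoli markers were 183 to 202 units in wild-type and 300 to 322 in knock-out flow-through, and 174 to 579 and 526 to 719 in J2. Summed spermatocyte markers were 202 to 439 in wild-type and 285 to 761 in knock-out flow-through, and 219 to 427 and 74 to 210 in J2. Their part in the member values was not tested, and in such bulk samples fewer cells of a type and less RNA per cell cannot be told apart.

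Adult was then set against wild-type P18. In J2, 54 of 75 tested members were lower in adults (56.6% of genes were positive), and the median was -1.13 against 0.33 over all 6882 genes. By limma, however, 0 members were called, where 5.07% of genes were called higher and 0.392% lower. At an unadjusted p under 0.05, 1 member was higher and 5 lower, beside 10.7% and 3.37% of genes. Without overlap 26 members were lower and 4 higher in adult J2, beside 8.83% and 18.7% of genes. Under the rescaled and quantile-normalized values the median stayed between -1.36 and -1.10, and it was -0.66 without the second adult J2 library. That library held the lower sum of members, 1094 units. Of the 54 members that passed within flow-through as well, 16 were positive (57.8% of the 5212 such genes were). Their median was -0.99, against 0.37 over those genes. Either filter can be reached through P18 libraries alone.

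The 5 lower members at an unadjusted p under 0.05 came from complexes I, II, IV and V. Sdhb was at 19.6 and 6.91 units in adult J2 and at 54, 77.9 and 59.1 in wild-type P18 J2 (log2 difference -2.32, SE 0.88, adjusted p 0.25 by limma). Atp5c1 was at 46.1 and 32.4 against 135, 126 and 130.04 (-1.73, SE 0.67, adjusted p 0.274 by limma), and Ndufv2 at 45.8 and 42 against 186, 129 and 134 (-1.73, SE 0.69, adjusted p 0.289 by limma). All 3 had adult values well below every P18 value. Atp5o, the oligomycin-sensitivity protein of the peripheral stalk, was at 6.16 and 13.3 against 62.5, 23 and 45.3, and Cox6b1 at 0 and 2.52 against 28.4, 33.5 and 8.55. Cox6b1 reached the filter through P18 J2 libraries alone, so its place in this count supports no comparison. The higher one was Atp5s, at 11.2 and 8.04 in adult J2 and listed at 0 in all 3 P18 J2 libraries (adjusted p 0.167 by limma). Complex medians in J2 were -0.70 for complex I, -0.89 for complex II, -1.14 for complex III, -1.34 for complex IV (12 of 13 negative) and -1.37 for complex V.

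In flow-through the members lay on both sides between ages. Of 56 members 27 were positive (56.7% of genes were), and the median was -0.05 (0.44 without the first adult library) against 0.28 over 7141 genes. Limma called 0 members, beside 3.08% of genes higher and 0.154% lower. At an unadjusted p under 0.05, 1 member was higher and 3 lower, beside 8.39% and 3.32% of genes, and without overlap 8 were higher and 8 lower, beside 16.6% and 8.57%. Atp5e, the epsilon subunit, was at 10.3 and 11.2 units in adult flow-through and listed at 0 in all 3 wild-type P18 libraries. It reached the filter through the 2 adult libraries alone, so its difference is given as values without a p. Sdhd was at 0 and 4.55 against 28.2, 7.96 and 34.4 (-3.16, SE 1.09, adjusted p 0.258 by limma). Ndufs7 (0 and 5.25 against 26.8, 14.8 and 23.7) and Ndufs8 (0 and 5.51 against 18.3, 11.8 and 21.3), both iron-sulfur subunits of complex I, were also wholly lower in adults. Complex V had 10 of its 12 tested members negative, with a median of -0.72.

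The difference between the 2 age comparisons, an age by fraction interaction, had 55 of 79 members negative and a median of -1.25 against 0.06 over all genes. Of all genes tested, 51.1% were positive. No member and 0% of genes passed the threshold by limma. Before adjustment, at p under 0.05, it held 3 lower and 0 higher members, beside 2.08% and 3.32% of genes. They were Cox6b1 (-5.23), Atp5e (-4.95) and Cox6c (-4.30, SE 1.77, adjusted p 0.826 by limma). Cox6b1 reached a value of 10 in P18 J2 libraries alone, and Atp5e in adult flow-through and P18 J2 libraries alone. Their place in this count thus rests on the filter, and their differences are given without a p. Spermatid markers moved with age in both fractions. The 10 elongating spermatid markers summed to 28.9 to 123 units in wild-type P18 flow-through and 2990 to 3210 in adult flow-through. In J2 they summed to 101 to 488 units in wild-type P18 and 2180 to 3040 in adults. Peritubular markers summed to 9.77 to 13.1 units in adult and 73.3 to 151 in wild-type P18 J2. The part of cell composition in the member values was not tested.

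**Figure D4:**
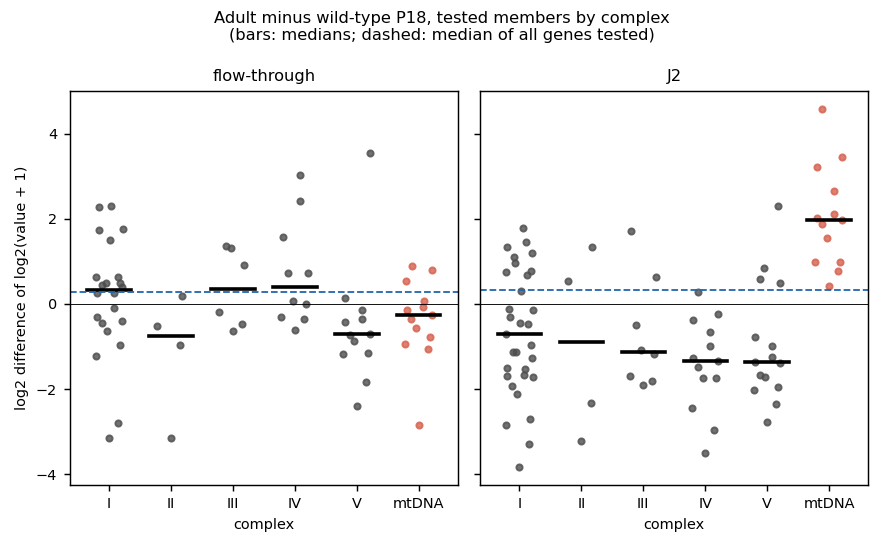
Adult minus wild-type P18 on the log2(normalized count + 1) scale (vertical axis) for each tested subunit (grey points) by complex, in flow-through and in J2, with the 13 mitochondrially encoded subunits in red, medians as black bars and the median of all genes as a dashed line. In J2 every complex has a median below 0 and the mitochondrially encoded subunits are all above 0.

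The mitochondrially encoded subunits of the same complexes were set beside their nuclear partners. In wild-type P18 the 13 of them had a median of -2.18 in J2 against flow-through, and 3 were called lower. mt-Nd1 of complex I was at 241, 89.1 and 208 units in J2 and at 1205, 1698 and 1134 in flow-through (-3.00, SE 0.61, adjusted p 0.0235 by limma). mt-Nd4 (-5.81, SE 1.15, adjusted p 0.0199 by limma) and mt-Cytb of complex III (-4.58, SE 0.88, adjusted p 0.0157 by limma) were lower too. The 2 with a positive difference were mt-Nd3 of complex I (0, 11.6 and 18.2 units in J2, 8.07, 0 and 0 in flow-through) and mt-Co1 of complex IV. The latter was at 784, 1451 and 1938 units in J2 and 574, 974 and 1028 in flow-through, with overlap. From P18 to adult J2 the 13 were all positive (median 1.98, 0 called by limma), and the second adult library carried the highest values, with mt-Co1 at 17573 units against 1816 in the first. These values are relative to the median gene, and the mitochondrial genes were not tested on a common total.

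Genes that act around the chain were measured in part. Of 40 assembly factors outside the members, 22 were tested in wild-type P18, with 14 positive (45.7% of all genes were), a median of 1.22 and 0 called by limma. Of 11 genes for the mobile carrier and nucleotide exchange 10 were tested, with 7 positive, a median of 1.26 and 0 called. Coenzyme Q synthesis had 5 of 13 tested (3 positive, 0 called) and the nuclear regulators of respiratory genes 10 of 12 (3 positive, median -1.56, 0 called). In adult against P18 J2, Tfam, the packaging and transcription factor of mitochondrial DNA, was the 1 of 7 tested regulators called higher by limma, and 0 were lower. It stood at 73.4 and 86.3 units in adult J2 and at most 0.759 in wild-type P18 J2, and it reached the filter through the adult libraries alone, so the call supports no comparison. The testis-type adenine nucleotide carrier Slc25a31, compared with the somatic Slc25a5, was at 60.5, 25 and 28.3 units in wild-type P18 J2 and 0, 10.1 and 17.6 in flow-through, while Slc25a5 was at 4.95, 10.5 and 13.8 in J2 and 25.5, 21.1 and 18.2 in flow-through. Its within-library log2 ratio was 3.77 higher in J2 without overlap in wild type (two-sided exact permutation p = 0.1, the smallest that 3 against 3 libraries allow, and 0.267 adjusted over 12 ratios tested) and 1.51 higher with overlap in the knock-out (exact permutation p = 0.2). Set against Slc25a4, the carrier's heart and muscle form, the ratio differed by 3.61 in wild type and -0.09 in the knock-out, both with overlap (exact permutation p = 0.2 and 0.9). Testis cytochrome c Cyct against somatic Cycs differed by -0.51 in wild type and 1.24 in the knock-out, both with overlap (exact permutation p = 0.6 and 0.2).

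Promoter windows were described as a feature that the rule did not use. RefSeq promoter windows on GRCm38.p6 were found for 76 of the 93 members. Their median was 20 CpG dinucleotides and 58.5% G and C, against 7 and 52.7% over 27025 windows of the same length. The NRF1 motif was held by 18 of them (23.7%, against 4.78% of all windows), the GABP motif CCGGAAG by 17 (22.4% against 9.12%) and the YY1 motif AAGATGGC by 10 (13.2% against 2.88%). The ERR motif TCAAGGTCA was found in 2 (2.63% against 0.407%), the CRE motif TGACGTCA in 4 (5.26% against 1.88%) and CCAAT in 34 (44.7% against 37.9%). All of these were searched on both strands. TATAAA, searched on the gene's strand, was in 3 (3.95% against 8.88%). A match is a run of letters and not a binding site, and motifs rich in CpG are found more often in CpG-rich windows.

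Overlap with a gene on the opposite strand, which could pair with a subunit's RNA, was seen for 9 of 76 members (11.8%, against 28.9% of all genes with a window). Among them, Atp5j overlaps Gabpa, a subunit of the GABP transcription factor, by 967 bases. The other 8 with such a partner were Atp5d, Atp5l, Uqcr10 and Ndufa13, which were tested, and Ndufa1, Ndufa9, Ndufb11 and Ndufaf4, which did not pass the filter. Whether the quantification used the strand of the reads is not given in the sources used here, so reads of overlapping partners may not have been told apart.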

How the data were processed

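The submitters' processing notes name FastQC, Trimmomatic, Salmon, DESeq2 and the build mm10, with no versions or settings. The deposited values are a signal, normalized counts per gene and library made by the authors, and are not whole reads, so no count model was used. Ensembl identifiers were matched to symbols for 35446 of 35920 genes. Every column was mapped by its label and 0 were left over. Tests used limma 3.58.1 (R 4.3.3) on log2(value + 1), with the settings given here (empirical Bayes with a mean trend, two-sided, Benjamini-Hochberg over all genes tested, threshold 0.05). Differences between fractions and interactions were fitted over 16 libraries, and differences of genotype or age within the 8 libraries of a fraction. The log2 scale with 1 added understates changes of low genes. The fit was tested on simulated data. Members and gene lists were chosen with earlier results of these data known. Named members were the called ones, the isoform pairs, the 4 with the highest mean in each complex and the 4 most positive and 4 most negative per comparison, 52 in all. From the pathway lists, called genes and the carrier pairs were named. Members outside this rule are named from counts of groups without overlap, after their values were seen. Of the 52 members, 1 is not reported here, though it stays in the counts and medians.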

Additional observations from a re-analysis of the deposited data

How the results depend on the processing

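In wild-type P18, the 1 member called between J2 and flow-through became 2 with a filter at 50 and 56 on a common total without mitochondrial genes (all higher; median of members 4.06, of all genes 1.87), and 0 with the codes in the table header as a replicate block (Cox6c adjusted p 0.0537 by limma). These codes pair 1 flow-through with 1 J2 library. The 8 pairs' deviations from their group means correlated by -0.026 to 0.031, and 4 of 8 correlated best within their group with their own code. In groups of 2 libraries the deviations mirror each other, so the adult pairs count as 1. With so few reads behind the flow-through values, these correlations cannot decide whether a code marks 1 animal. The block changed no other count. Leaving out 1 library gave 1 to 2 calls, the second being Cox7b without wild-type P18 J2 replicate 3 (4.83). Cox7b passed the filter through J2 libraries alone. In the knock-out the 0 called became 2 with a filter at 50 (Ndufs5 and Atp5j), 58 on the common total (median 3.92, of genes 2.16) and 1 when only the libraries compared were fitted (Atp5j). The second member called in wild type with a filter at 50 was Ndufs5. At that filter Cox6c, Ndufs5 and Atp5j passed through J2 libraries alone. In adults 0 became 48 on the common total (median 3.64, of genes 2.74), and for adult against P18 flow-through 0 became 1 when only the libraries compared were fitted (Atp5e, which passed the filter through the adult libraries alone). In every other comparison and setting the count stayed 0, with each library left out as well. For the calls on the common total (56, 58 and 48 members) the share of all genes called was not counted, so they have no background. The common total rests largely on the 10 highest features of each library, which hold 95.75% to 98.83% of the signal in flow-through libraries. On it these turned to higher in J2 and passed the threshold: Cox4i1 (3.003), Atp5a1 (3.58) and Ndufs8 (2.54) in wild type; Cox6b2 (3.42), Cox7b2 (3.12), Cox4i1 (3.05), Atp5a1 (3.92) and Ndufs1 (2.79) in the knock-out; Cox6b2 (3.78), Cox7b2 (3.79), Cox8c (3.48), Sdhb (3.48), Uqcrc1 (2.87), Cox4i1 (2.90) and Atp5c1 (4.196) in adults. With 5 added in place of 1, the median of members fell to 0.87 in wild type and 0.75 in the knock-out. Filters within 1 fraction, the ratio of group means and leaving out genes at 0 throughout a group were chosen after seeing the data. The planned levels per length were not run. A value of 10 rests on as few as 1.2 reads in flow-through, which limits what can be called there.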
